A study of Mus musculus with 12 samples.

Results

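The 9 genes Zfp869, Mau2, Slc25a42, Comp, Ocel1, Zfp961, Mri1, Gadd45gip1 and Lpcat2 lie on mouse chromosome 8, the chromosome of the targeted gene Cacna1a, and read differently in the cerebellum of 11Q knockin mice and their wild type littermates. They are 9 of 18194 genes that the array annotation gives a probe set of their own, and 9 of 932 such genes on chromosome 8. The genes were picked for their difference in the 11Q line, so that difference is described here and not tested, and no threshold was given with the list. The arrays of the 118Q line took no part in the choice, and the comparison within that line is tested. Each gene was followed probe set by probe set, a probe set being the group of short probes on the array that reports one transcript.

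Every mouse was of C57BL/6 background and 6 weeks old, and each of the 12 arrays holds the cerebellar RNA of 1 mouse. The 11Q knockin mice (MPI 11Q/11Q) carry a Sca6 knockin allele with a short glutamine tract on both chromosomes, and the 118Q knockin mice (MPI 118Q/118Q) one with a long tract. Each line has its own wild type littermates, so there are 4 groups of 3 arrays. In such an allele the altered sequence is expressed from the gene's own place in the genome, in every cell type that uses Cacna1a. The labels do not say whether the mice of a group shared a litter, so p-values measure the spread between these arrays.

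Purkinje and granule cells of the cerebellum release transmitter through a calcium channel of the P/Q type, whose pore Cacna1a encodes, and a long glutamine tract in it causes spinocerebellar ataxia type 6. The 9 genes share a chromosome with it and no pathway. Comp is a matrix protein of the thrombospondin family known from cartilage, Mau2 loads cohesin onto chromatin together with Nipbl, and Slc25a42 carries coenzyme A into mitochondria. Gadd45gip1 is a protein of the large subunit of the mitochondrial ribosome, Mri1 an enzyme of methionine salvage, and Lpcat2 an acyltransferase of microglia and macrophages that makes platelet-activating factor. Zfp869 and Zfp961 are zinc finger proteins in clusters of related genes, and Ocel1 carries an occludin and ELL domain. A gene targeted in embryonic stem cells is inherited with the DNA beside it, and the labels name neither the strain of the stem cells nor genotypes elsewhere on chromosome 8. Whether the 9 genes lie in a stretch of DNA carried along with either allele was not tested.

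The deposited values are log2 expression from RMA, with array medians of 2.21 to 2.38 and correlations between arrays of 0.980 to 0.995. The arrays read as cerebellum: all 7 measured granule cell markers and all 6 measured Purkinje cell markers stood above the filter on dim probe sets, and of 4 measured forebrain markers 1 did. Choroid plexus, a tissue that lies against the cerebellum, entered the samples unequally. The summed linear signal of 6 choroid markers was 4019 to 4229 in 11Q wild type, 85 to 3747 in 11Q knockin, 130 to 4229 in 118Q wild type and 465 to 3772 in 118Q knockin. Ttr, its most abundant transcript, read 7.68, 5.26 and 11.79 in the 3 knockin arrays of the 11Q line and 11.88 to 11.93 in their littermates. Among 118Q mice Ttr read 11.89, 6.25 and 11.82 in wild type and 11.79, 11.39 and 8.66 in knockin mice. The 18S ribosomal RNA signal was 9.23, 8.63 and 8.56 in 118Q knockin against 9.78, 9.66 and 10.32 in its littermates, with no overlap, and 10.10 to 10.54 in the 11Q line. In tissue RNA, fewer cells of a type and less RNA per cell cannot be told apart.

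Cacna1a itself, at the probe set with its highest mean, read 6.36, 6.25 and 6.48 in 11Q wild type and 6.28, 6.42 and 6.17 in 11Q knockin arrays. It read 6.09, 5.54 and 6.19 in 118Q wild type and 5.67, 5.65 and 5.50 in 118Q knockin arrays. The difference was -0.07 ± 0.16 (SE, 3 against 3 arrays) in the 11Q line and -0.34 ± 0.16 in the 118Q line (limma adjusted p = 0.288). The probe sets report the amount of Cacna1a RNA and not the length of its tract, so they do not check the labels.

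The 9 genes have 17 probe sets on the array. Of these, 13 stood above the filter, which took out the dimmest 40% of the array (log2 mean of 1.58 or less), and each gene kept at least 1. In the 11Q line the 3 knockin arrays lay beyond all 3 wild type arrays in 10 of the 13, 5 higher and 5 lower, in a contrast where this held for 9.66% of all 27060 probe sets (3.52% higher and 6.13% lower). At an unadjusted p below 0.05 and a fold of 1.5 or more there were 9 of 13, against 0.673% of all probe sets. Both counts are set by the choice of the genes and support nothing. Over all probe sets of this contrast limma called 0 (0%) at an adjusted p below 0.05, and 954 (3.53%) had an unadjusted p below 0.05. The size of the difference had a median of 0.75 log2 units over the 13 and 0.11 over all probe sets. The text below takes for each gene the probe set with the highest mean over the 12 arrays, called its first probe set, and then its other probe sets.

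**Figure D1:**
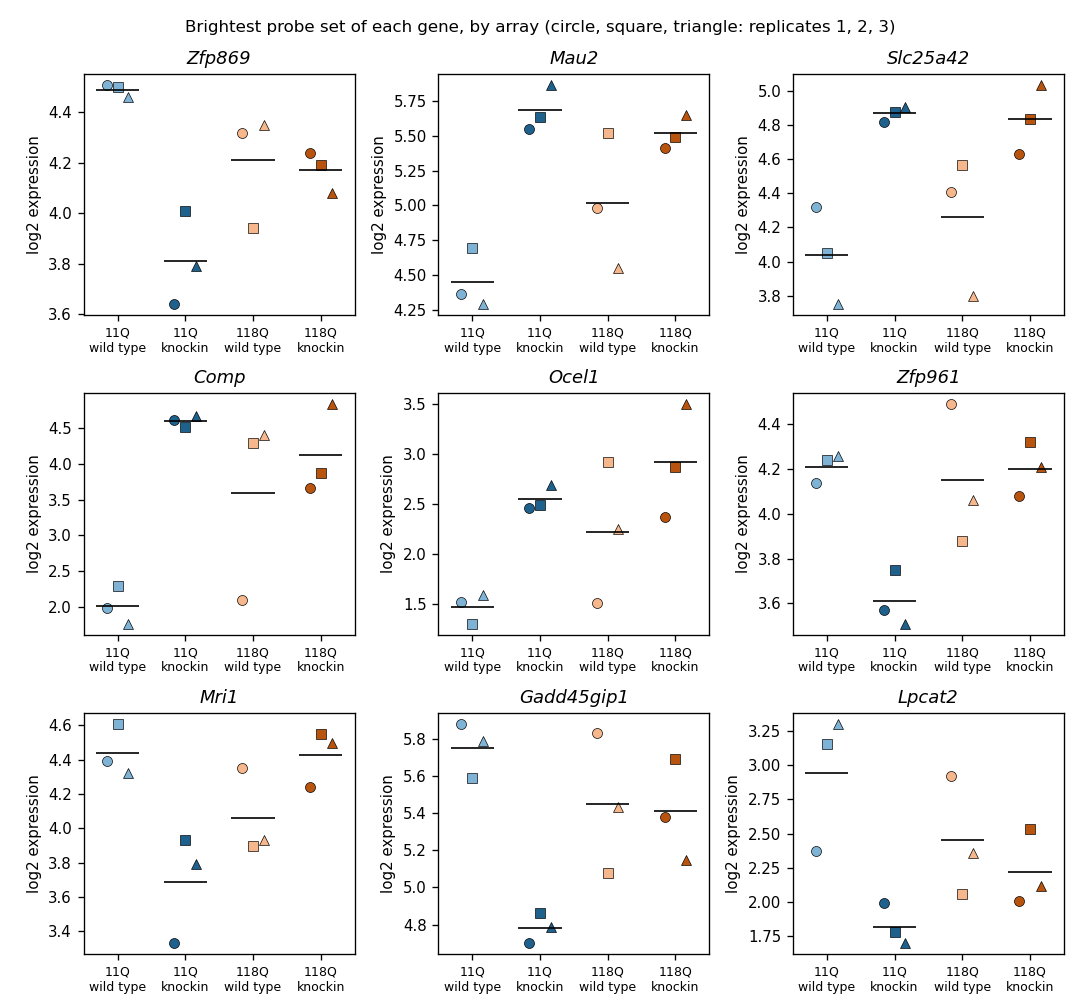
Log2 expression of the first probe set of each of the 9 genes in the 12 arrays (3 per group, x axis: group), with the group mean as a line and a separate y scale in each panel. The 11Q knockin arrays lie apart from their wild type arrays in every panel, while the 118Q wild type arrays of Comp run from 2.09 to 4.41.

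Comp, Mau2, Ocel1 and Slc25a42 were higher in the 11Q knockin. Comp (1419527_at) read 1.98, 2.29 and 1.76 in 11Q wild type, 4.62, 4.52 and 4.68 in 11Q knockin, 2.09, 4.29 and 4.41 in 118Q wild type and 3.66, 3.88 and 4.84 in 118Q knockin arrays. The 11Q knockin arrays stood far above their littermates, by 2.60 ± 0.49 log2 units (SE), a 6.07-fold difference and the largest among the 9 genes. The littermate mean, 2.01, lay near the dim end of the array. The SE comes from a spread shared by all 4 groups, and the SDs of the 11Q groups alone were 0.27 and 0.08. In 118Q wild type, replicate 1 was as low as the 11Q littermates, and the other arrays came close to the 11Q knockin without reaching its lowest array. That group spanned 2.32 log2 units, and 0.174% of all probe sets spanned as much or more there, where the median was 0.33. By group mean the order was 11Q wild type (2.01 ± 0.27, SD, n = 3), 118Q wild type (3.60 ± 1.31), 118Q knockin (4.13 ± 0.62) and 11Q knockin (4.61 ± 0.08), and the range of 118Q knockin overlapped those of 118Q wild type and 11Q knockin, which lay apart from each other. Of the 8 cartilage and tendon markers, 4 stood above the filter, and their summed signal with the dim ones was 42 to 65 in 11Q wild type and 49 to 64 in 11Q knockin, so the ranges overlapped. Meningeal fibroblast markers summed to 2091 to 2402 in 11Q wild type and 2248 to 2567 in 11Q knockin, also with overlap.

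Ocel1 (1425191_at) read 1.52, 1.30 and 1.59 in 11Q wild type, 2.46, 2.49 and 2.69 in 11Q knockin, 1.51, 2.92 and 2.25 in 118Q wild type and 2.37, 2.87 and 3.50 in 118Q knockin arrays. As in Comp, replicate 1 of 118Q wild type sat among the 11Q littermates. The 11Q difference was 1.08 ± 0.31 (2.11-fold), and it was 0.70 with Ttr as a covariate. The 11Q wild type mean, 1.47, lay below the level of the filter on dim probe sets. This probe set passed the filter on its mean over all arrays, 2.29, so the fold is taken from a dim baseline. The span in 118Q wild type, 1.41, was reached by 0.806% of all probe sets.

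Mau2 (1456492_at) read 4.36, 4.69 and 4.29 in 11Q wild type, 5.55, 5.64 and 5.87 in 11Q knockin, 4.98, 5.52 and 4.55 in 118Q wild type and 5.41, 5.49 and 5.65 in 118Q knockin arrays. The 11Q difference was 1.24 ± 0.20 (2.36-fold). This probe set is the first of Mau2 by a narrow margin, with a mean of 5.17 over all arrays against 5.13 for 1426250_s_at. In 11Q wild type it was the dimmest Mau2 probe set above the filter, at 4.45 against 5.15, 4.82 and 4.56. Its place as first therefore rests on the groups where it read high. Both knockin groups were tight and close to each other, with means of 5.69 ± 0.16 and 5.52 ± 0.12 (SD, n = 3).

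Slc25a42 (1424790_at) read 4.32, 4.05 and 3.75 in 11Q wild type, 4.82, 4.88 and 4.91 in 11Q knockin, 4.41, 4.57 and 3.80 in 118Q wild type and 4.63, 4.84 and 5.04 in 118Q knockin arrays. It was 0.83 ± 0.20 higher in the 11Q knockin (1.78-fold), and its knockin arrays stood above their own littermates in both lines. The knockin means, 4.87 ± 0.05 and 4.84 ± 0.20, differed by less than the spread of the 118Q arrays.

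Gadd45gip1, Lpcat2, Mri1, Zfp869 and Zfp961 were lower in the 11Q knockin. Gadd45gip1 (1417619_at) read 5.88, 5.59 and 5.79 in 11Q wild type, 4.70, 4.86 and 4.79 in 11Q knockin, 5.83, 5.08 and 5.43 in 118Q wild type and 5.38, 5.69 and 5.15 in 118Q knockin arrays. The 11Q knockin was the lowest group, by 0.97 ± 0.18 against its littermates (1.96-fold), and no array of another group reached its range. Both 118Q groups lay between the 11Q groups, at 5.45 ± 0.37 and 5.41 ± 0.28.

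Lpcat2 (1434945_at) read 2.37, 3.15 and 3.30 in 11Q wild type, 1.99, 1.78 and 1.70 in 11Q knockin, 2.92, 2.06 and 2.36 in 118Q wild type and 2.01, 2.53 and 2.12 in 118Q knockin arrays. The 11Q difference was -1.12 ± 0.26 (2.17-fold lower), on values near the dim end of the array, and 11Q wild type replicate 1 lay within the range of both 118Q groups. Microglial markers did not separate the 11Q groups: 10 of 12 stood above the filter, and the summed signal of the 11 with a probe set was 188 to 245 in wild type and 169 to 224 in knockin arrays. Among 118Q mice the same sum was 232 to 265 in wild type and 296 to 386 in knockin arrays, with no overlap, while Lpcat2 overlapped there.

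Mri1 (1417146_at) read 4.39, 4.61 and 4.32 in 11Q wild type, 3.33, 3.93 and 3.79 in 11Q knockin, 4.35, 3.90 and 3.93 in 118Q wild type and 4.24, 4.55 and 4.50 in 118Q knockin arrays. Its difference was -0.75 ± 0.17 in the 11Q line (1.68-fold lower) and 0.37 ± 0.17 in the 118Q line. The 118Q knockin mean (4.43 ± 0.17) sat at that of the 11Q wild type (4.44 ± 0.15). Mri1 is the gene of the 9 that lies nearest to Cacna1a, 2 protein-coding genes toward the start of the chromosome.

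Zfp869 (1429473_at) read 4.51, 4.50 and 4.46 in 11Q wild type, 3.64, 4.01 and 3.79 in 11Q knockin, 4.32, 3.94 and 4.35 in 118Q wild type and 4.24, 4.19 and 4.08 in 118Q knockin arrays. Zfp961 (1434296_at) read 4.14, 4.24 and 4.26 in 11Q wild type, 3.57, 3.75 and 3.51 in 11Q knockin, 4.49, 3.88 and 4.06 in 118Q wild type and 4.08, 4.32 and 4.21 in 118Q knockin arrays. In both genes the 11Q knockin was the lowest group, by 0.68 ± 0.13 for Zfp869 (1.60-fold) and 0.60 ± 0.15 for Zfp961 (1.52-fold). For Zfp961 no array outside the 11Q knockin read as low, and for Zfp869 the lowest such array was 118Q wild type replicate 2 at 3.94, within the knockin range. Both sit among related zinc finger genes, so probes that also bind a relative cannot be told apart from their own signal here.

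The promoters of the zinc finger pair and of Slc25a42 are shown because the first 2 genes differed in one direction and the third in the other. Promoter sequences of RefSeq (GRCm38.p6, the C57BL/6J reference and not read from these mice) were listed for 7 of the 9 genes, each window running from 250 bases before a start to 50 after it. The motif searched was CCAAT, the letters of the CCAAT box, on both strands (ATTGG on the printed one), with overlapping matches counted. Capitals mark the matches. Zfp869 lies at chr8:69716853-69717152, minus strand, Zfp961 at chr8:71950816-71951115, plus strand and Slc25a42 at chr8:70212232-70212531, minus strand.
Zfp869: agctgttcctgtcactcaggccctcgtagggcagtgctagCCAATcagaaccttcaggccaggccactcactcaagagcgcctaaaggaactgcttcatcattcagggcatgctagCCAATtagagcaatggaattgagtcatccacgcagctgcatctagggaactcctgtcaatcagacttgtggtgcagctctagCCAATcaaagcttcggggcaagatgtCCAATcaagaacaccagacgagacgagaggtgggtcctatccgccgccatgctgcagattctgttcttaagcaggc
Zfp961: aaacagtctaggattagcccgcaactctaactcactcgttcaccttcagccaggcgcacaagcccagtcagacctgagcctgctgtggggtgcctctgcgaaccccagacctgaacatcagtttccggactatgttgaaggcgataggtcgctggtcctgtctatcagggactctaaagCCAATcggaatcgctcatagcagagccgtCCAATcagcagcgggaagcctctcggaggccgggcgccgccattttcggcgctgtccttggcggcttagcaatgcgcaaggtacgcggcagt
Slc25a42: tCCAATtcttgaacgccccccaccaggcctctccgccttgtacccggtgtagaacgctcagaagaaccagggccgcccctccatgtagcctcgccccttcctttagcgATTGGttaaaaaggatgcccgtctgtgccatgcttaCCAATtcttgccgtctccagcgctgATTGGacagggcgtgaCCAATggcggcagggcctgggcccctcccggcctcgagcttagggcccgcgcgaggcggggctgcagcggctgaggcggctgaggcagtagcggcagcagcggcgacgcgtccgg
Zfp869 holds 4 matches, Zfp961 2 and Slc25a42 5. Of 32851 promoter windows of this length 37.4% hold at least 1, 11.7% at least 2, 1.06% at least 4 and 0.271% at least 5. Ocel1 has 3 matches, Lpcat2 1, and Mri1 and both windows of Mau2 have 0, so 5 of the 8 windows hold the letters. Genes with and without a match are found among those higher and those lower in the 11Q knockin. A match describes the letters and is no sign of binding.

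Mau2 and Gadd45gip1 had more than 1 probe set above the filter, and the probe sets of each gene did not read alike. The 4 Mau2 probe sets differed by 1.24, 0.47, 0.19 and 0.10 in the 11Q line. 1451993_at and 1426250_s_at come from the same source sequence in the annotation, and the knockin arrays lay above their littermates for the former (0.47 ± 0.16) and overlapped for the latter (0.10 ± 0.16). The suffix of the latter marks probes that can match more than 1 transcript. In Gadd45gip1 the second probe set (1448776_at), also from the source sequence of the first, read 2.06 ± 0.29 in 11Q wild type and 2.35 ± 0.21 in 11Q knockin arrays, a difference of 0.29 ± 0.19 against -0.97 ± 0.18 at the first.

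Because the genes were picked for a large 11Q difference, a wide 11Q span between the probe sets of 1 gene follows in part from that choice, and the spans are given as a description. Between probe sets of 1 gene, 11Q differences spanned 1.26 log2 units in Gadd45gip1 and 1.14 in Mau2, and 0.184% and 0.251% of the 5988 genes with at least 2 probe sets above the filter spanned as much, with a median of 0.19. For the 118Q contrast the spans were 0.18 and 0.48, which 59.5% and 13.6% of those genes reached, with a median of 0.22. The 4 probe sets at or below the filter read 0.33 to 1.62 in all arrays. Their 11Q differences were -0.16 for Slc25a42, 0.00 for Zfp961, -0.15 for Mri1 and 0.39 for Lpcat2, whose first probe set differed the other way. Comp, Ocel1 and Zfp869 have 1 probe set each, so no second reading of them exists on the array.

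**Figure D2:**
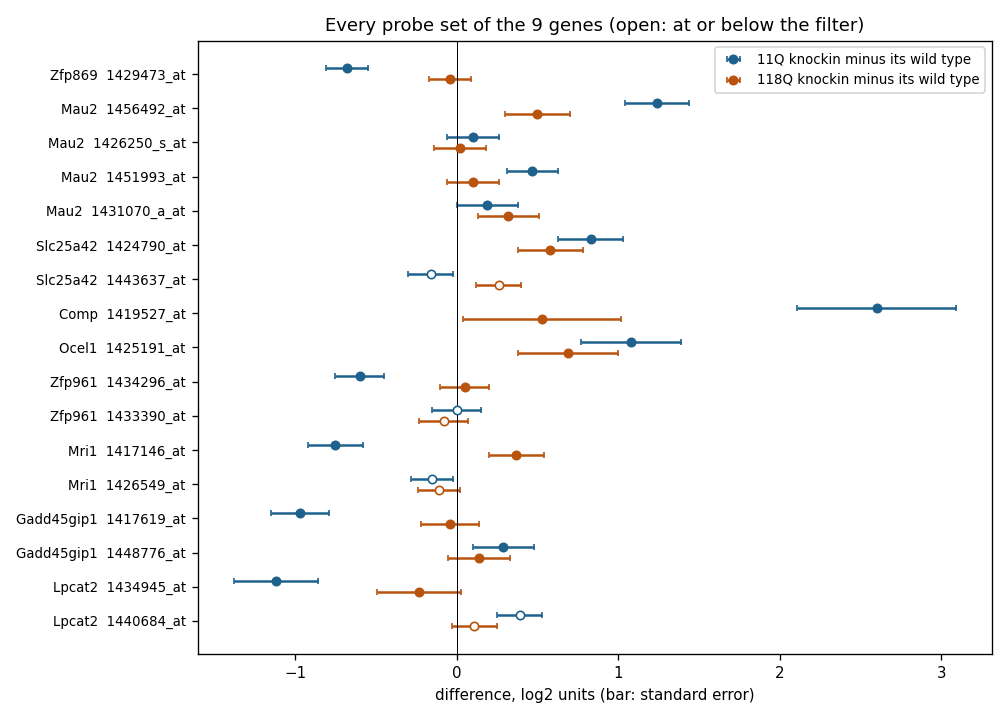
Difference between knockin and wild type in log2 units (x axis) for all 17 probe sets of the 9 genes (y axis, in chromosome order), with standard errors as bars and open points for the 4 probe sets at or below the filter. Mau2 and Gadd45gip1 show unequal 11Q differences between their own probe sets, 1.24 to 0.10 and -0.97 to 0.29.

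The comparison within the 118Q line asks whether the genes also differ where the allele has a long tract. None of the 13 probe sets was called: limma gave 0 of 13 at an adjusted p below 0.05, where 2.25% of all 27060 probe sets were called, and 3 of 13 had an unadjusted p below 0.05 against 18% of all. The smallest adjusted p was 0.148, for Slc25a42, which differed by 0.58 ± 0.20 (95% interval 0.16 to 1.01). Ocel1 differed by 0.69 ± 0.31 (adjusted p = 0.270, interval 0.01 to 1.38), Mau2 by 0.50 ± 0.20 (adjusted p = 0.223, interval 0.06 to 0.94) and Comp by 0.53 ± 0.49 (adjusted p = 0.612, interval -0.53 to 1.59). Comp was picked for its 11Q difference of 2.60, so its interval is not set against that value. That interval uses a spread shared by all 4 groups, while the 118Q groups had SDs of 1.31 and 0.62, so it may be too narrow. Of the genes lower in the 11Q knockin, Mri1 differed by 0.37 (interval -0.01 to 0.74), Lpcat2 by -0.23 (-0.78 to 0.32), Zfp961 by 0.05 (-0.27 to 0.38), Gadd45gip1 by -0.04 (-0.44 to 0.36) and Zfp869 by -0.04 (-0.33 to 0.25). The 11Q values of these 5 probe sets, -1.12 to -0.60, chose the genes, which favours large values, and they carry their own error. The intervals are therefore not set against them, and whether the effects of the lines differ was not tested.

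The knockin arrays of the 118Q line lay beyond their littermates in 2 of the 13 probe sets, both higher, namely the first of Slc25a42 and 1431070_a_at of Mau2 (0.32 ± 0.19, adjusted p = 0.404). Over all probe sets 21.6% were separated in this way, 12.4% higher and 9.21% lower. At an unadjusted p below 0.05 and a fold of 1.5 or more there was 1 of 13, Ocel1, against 4.6% of all. The sign was the same in both lines for 11 of 13 probe sets and 7 of 9 first probe sets, against 53.5% of all probe sets, and several of these values lie close to 0. Single arrays moved the results. Without 118Q wild type replicate 2, Mau2 differed by 0.75 and passed (adjusted p = 0.0444), and without wild type replicate 1, Comp turned to -0.22. Array weights called 3 probe sets, those of Slc25a42 (adjusted p = 0.00987), Mri1 (0.0218) and Ocel1 (0.0252). The same weights called 5973 of all 27060 probe sets, a share near that of 3 of 13. With the 18S signal, which separates these groups, as a covariate, Slc25a42, Ocel1 and Mau2 differed by -0.31, -0.09 and -0.09. Cell type markers also differed between these groups: the summed signal of 6 Purkinje cell markers was 7720 to 8312 in wild type and 6166 to 7361 in knockin arrays, with 2 of 6 called lower, and that of 7 endothelial and mural cell markers was 382 to 474 and 297 to 342, with 3 of 7 called lower. Of 10 microglial markers 2 were called higher. Their part in the values of the 9 genes was not tested.

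The 6 arrays of the 118Q line were then placed on the scale of the 11Q line, with 0% at the mean of 11Q wild type and 100% at that of 11Q knockin, for each of the 9 first probe sets. Replicate 1 of 118Q wild type was nearer to the 11Q wild type mean in 9 of 9 genes, with a median of 3.3% (-47.1% to 44.3%). Replicate 2 of the same group was nearer to the 11Q knockin mean in 9 of 9, with a median of 79.2% (55.0% to 134.8%). At these 9 genes the 2 littermates, labelled wild type alike, lay nearer to opposite group means of the other line. Some places were close to midway. Replicate 1 stood at 43.3% for Mau2 and 44.3% for Slc25a42, and replicate 2 at 55.0% for Zfp961 and 63.3% for Slc25a42. Places were not computed over all probe sets, so the counts of 9 have no share to stand beside. The 11Q difference that chose the genes also sets the scale. The genes vary together over the arrays, so they are not 9 separate readings. Replicate 3 lay between, with 4 genes nearer to the knockin mean and a median of 33.2%, and within it Comp stood at 92.5% and Slc25a42 at -29.2%. The Ttr signal of these 3 arrays was 11.89, 6.25 and 11.82, lowest in replicate 2, and its part in these places was not tested.

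The 118Q knockin arrays split by direction. The 4 genes higher in the 11Q knockin were all nearer to the 11Q knockin mean in each of the 3 arrays, with medians of 74.6%, 90.4% and 114.6%. Of the 5 lower genes, 1, 0 and 3 were nearer to it, with medians of 37.0%, 6.2% and 61.1%. Zfp961 and Mri1 stood at 22.4% and 27.0% in replicate 1, -18.2% and -14.8% in replicate 2, and 0.9% and -7.7% in replicate 3, near the 11Q wild type. Lpcat2 stood at 83.6%, 37.2% and 73.6%.

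**Figure D3:**
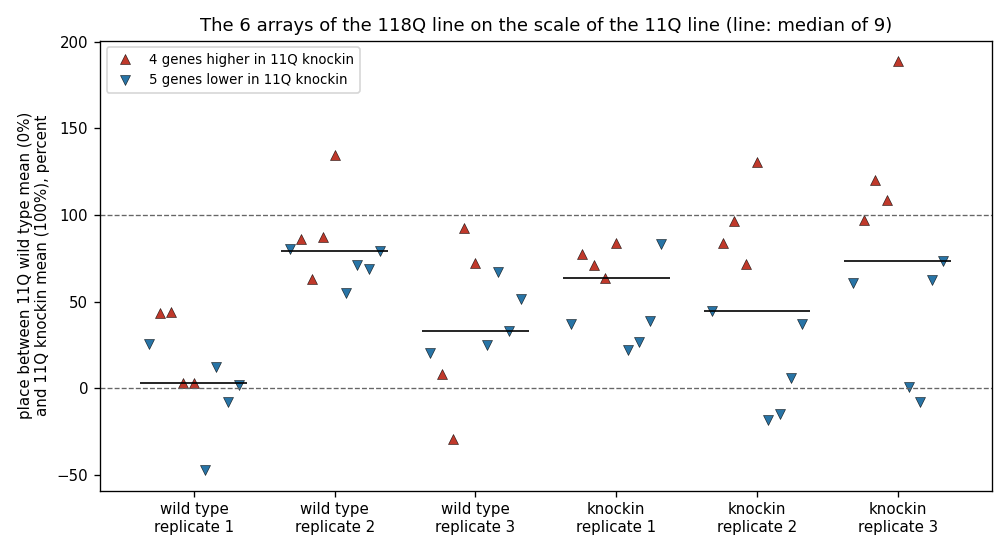
Place of each 118Q array (x axis) between the 11Q wild type mean (0%) and the 11Q knockin mean (100%) for the 9 first probe sets, with triangles up for the 4 genes higher and down for the 5 lower in the 11Q knockin and lines at the median. By their medians, 3.3% and 79.2%, wild type replicates 1 and 2 lie nearer to opposite ends.

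Choroid plexus signal moved with the 11Q groups, since all 3 knockin arrays read below their littermates in 5 of 6 measured choroid markers. Within the knockin arrays Ttr was 7.68, 5.26 and 11.79. Only Comp (4.62, 4.52 and 4.68) ranked as Ttr did, and only Zfp961 (3.57, 3.75 and 3.51) in the opposite order. Mau2 (5.55, 5.64 and 5.87) and all the remaining first probe sets ranked in neither. With Ttr as a covariate the 11Q differences were 2.18 for Comp, 1.06 for Mau2, 0.70 for Ocel1 and 0.67 for Slc25a42 among the higher genes. Among the lower genes they were -0.77 for Gadd45gip1, -0.97 for Lpcat2, -0.72 for Mri1, -0.59 for Zfp869 and -0.55 for Zfp961. Each value was smaller in size than in the fit with no covariate, and Ocel1 was the only one to move by more than 1.5 times. Beyond these values the part of choroid plexus was not tested.

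Along the chromosome the 9 genes fall on both sides of Cacna1a. In gene order Zfp869 lies 193, Mau2 181, Slc25a42 170, Comp 161, Ocel1 124, Zfp961 94 and Mri1 2 protein-coding genes from it toward the start, and Gadd45gip1 7 and Lpcat2 70 toward the end. The annotation, RefSeq on GRCm38.p6, lists 603 such genes before Cacna1a and 439 after it. Among the first probe sets of these 9 genes alone, direction in the 11Q knockin follows in runs. Zfp869 is low, the next 4 (Mau2, Slc25a42, Comp and Ocel1) are high, and Zfp961, Mri1, Gadd45gip1 and Lpcat2 are low. Other genes break the runs, at 1 probe set each. Rfxank (-0.74) lies between Mau2 and Slc25a42, and Farsa (1.11) between Gadd45gip1 and Lpcat2.

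Their neighbours were shifted too. To keep small differences out, a probe set is counted here when its groups do not overlap and differ by at least 0.5 log2 units, which held in the 11Q line for 0.891% of all probe sets. On chromosome 8 it held for 51 of 1195 (4.27%), 18 higher and 33 lower, and without the 9 genes for 42 of 1182 (3.55%), against 156 of 21516 (0.725%) on the other chromosomes. Among the 20 chromosomes compared, chromosome 13 came next with 1.31%. The share without the 9 genes was 7.27% within 50 genes toward the start, 11.9% from there to 150 genes, 7.80% up to 300 and 0.683% farther away. Toward the end it was 8.97% within 50 genes, 1.90% from there to 150 genes, 1.08% up to 300 and 0% beyond that. The genes were picked from this contrast, so these shares describe it and are not tested.

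The 118Q line showed no such band by the same count, which held for 5.63% of all probe sets there. It gave 3.93% on chromosome 8 and 3.70% on the other chromosomes, and 1.82%, 4.59% and 4.96% in the windows toward the start in which the 11Q shares were high. Within 50 genes toward the end it was 2.56%, and from there to 150 it was 8.57%, or 9 of 105 probe sets. By limma 14 of 1195 probe sets of chromosome 8 were called in the 118Q line (1.17%), and 1.14% on the other chromosomes. The count of separated groups needs all 3 knockin arrays beyond all 3 wild type arrays. At the 9 genes, 118Q wild type replicates 1 and 2 lay nearer to opposite 11Q group means. Such a spread within the wild type group can hide a band, so these counts cannot show that the 118Q line lacks one.

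**Figure D4:**
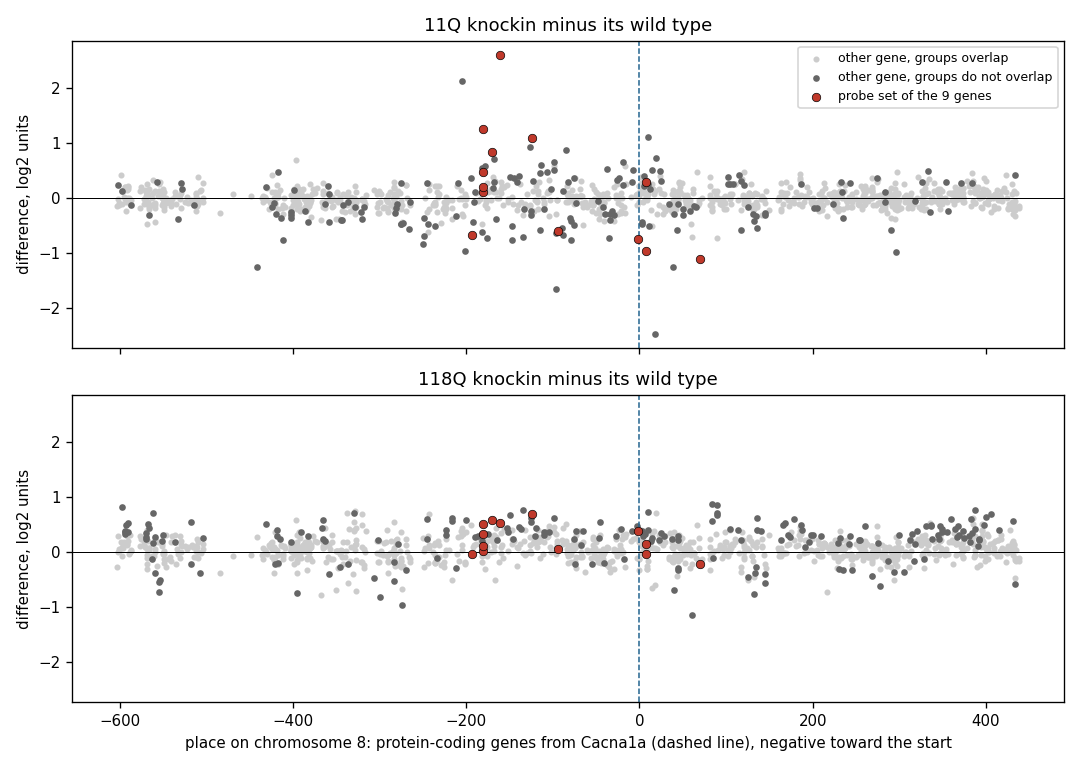
Difference between knockin and wild type in log2 units (y axis) for the probe sets of chromosome 8 above the filter, by place in gene order from Cacna1a (x axis, dashed line at Cacna1a), in the 11Q line (top) and the 118Q line (bottom). Large 11Q differences in both directions gather between 300 genes toward the start and the place of Lpcat2 (70 genes toward the end), with single points outside. The 118Q panel shows no such gathering, though the spread among the 118Q wild type arrays can hide one.

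**Figure D5:**
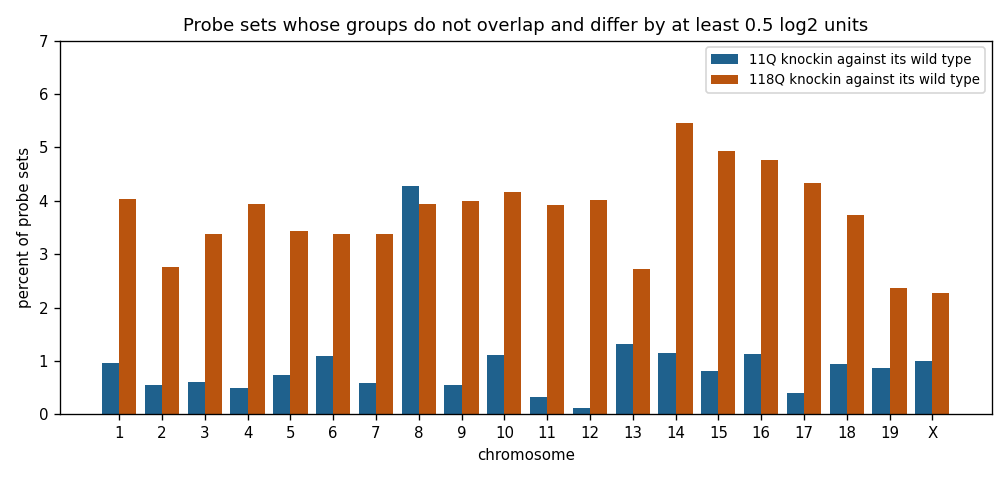
Percent of probe sets on each chromosome (x axis) whose groups do not overlap and differ by at least 0.5 log2 units, in the 11Q line (blue) and the 118Q line (orange). Chromosome 8 has 4.27% in the 11Q line and no other chromosome more than 1.31%, while in the 118Q line chromosome 8 has 3.93%.

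Some neighbours had differences as large as those of the 9 genes or larger. Zfp882, a zinc finger gene 2 places from Zfp961, read 2.97, 2.85 and 2.93 in 11Q wild type and 1.18, 1.29 and 1.31 in 11Q knockin arrays at 1443931_at, a difference of -1.66 ± 0.22, and its other probe set differed by -0.30. In 118Q mice it read 2.96, 1.97 and 2.56 in wild type and 2.49, 2.79 and 2.09 in knockin arrays. Prdx2, a peroxidase 18 genes from Cacna1a toward the end, read 6.15, 6.03 and 6.14 in 11Q wild type and 3.49, 3.84 and 3.55 in 11Q knockin arrays at 1430979_a_at, a difference of -2.48 ± 0.49. In 118Q wild type that probe set read 5.95, 3.61 and 5.47, so replicate 2 sat at the 11Q knockin level here as well. The other Prdx2 probe set differed by 0.12 ± 0.12.

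Ints10, a subunit of the Integrator complex 205 genes toward the start, read 1.41, 1.33 and 1.54 in 11Q wild type, 3.55, 3.75 and 3.35 in 11Q knockin and 1.28, 3.41 and 2.79 in 118Q wild type arrays at 1439712_at. Its 11Q difference was 2.12 ± 0.45 there and -0.03 and -0.29 at its other probe sets. Farsa, a subunit of phenylalanyl-tRNA synthetase, was 1.11 ± 0.23 higher at 1 probe set, and its other probe sets differed by 0.24, 0.20 and 0.06. Also higher were Myo9b (0.92, the other probe set -0.15), Sugp2 (0.70, the others 0.28 and 0.10) and Fcho1 (0.65, the others 0.57 and 0.50). Lower were Dnaja2 (-1.25, the others -0.19 to 0.14), Rfxank (-0.74, the others -0.18 and 0.26) and Dynlrb2 (-0.98, its only probe set above the filter), which lies 296 genes toward the end. In Mau2, Gadd45gip1, Zfp882, Prdx2, Ints10, Farsa, Myo9b, Sugp2, Dnaja2 and Rfxank 1 probe set differed more than the others of that gene. In Fcho1 all 3 differed by similar amounts. The genes and neighbours were picked for their 11Q difference, so such a gap between probe sets follows in part from that choice.

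Genes that vary like the 9 over the 12 arrays often lay on the same chromosome. Taking for each first probe set the 3 other probe sets with the highest Pearson correlation, 14 of 27 were on chromosome 8, where 5.19% of the candidate probe sets lie. The 14 held 10 distinct genes, since Zfp882 and Prdx2 came up repeatedly. The 9 genes vary together, so the 27 are not separate readings. All 12 arrays enter these correlations, including the 11Q arrays that chose the genes. Comp was most like Ints10 (r = 0.96, Spearman 0.87), then Plvap and Farsa (0.88 each), all on chromosome 8. Gadd45gip1 was most like Zfp882 (0.98, Spearman 0.99), Prdx2 and Cherp, and Ocel1 most like Fam32a (0.98, Spearman 0.97), each of chromosome 8. Zfp882 also led for Zfp869 (0.92) and Zfp961 (0.91). By contrast, the 3 probe sets most like Mau2 (Tbc1d10c, Zfp235 and Blmh) and like Mri1 (A930006K02Rik, Fam114a1 and Mia) lay on other chromosomes.

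The zinc finger genes next to Zfp869 and Zfp961 did not all read lower. Toward the Zfp869 end, Zfp868 differed by 0.35 ± 0.17, Zfp963 by -0.44 ± 0.16, Zfp866 by -0.08 ± 0.12 and both probe sets of Zfp930 by 0.01 and -0.02 in the 11Q line. Beside Zfp961, Zfp709 differed by -0.65 ± 0.19 and both probe sets of Zfp617 by -0.05 and -0.04. Within the 118Q line no probe set of these genes was called, and the smallest adjusted p was 0.143, at Zfp930.

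Genes that work with the 9 were not called in the 118Q line, where limma called 1.14% of 12672 genes at their first probe sets. Of 47 measured proteins of the large mitochondrial ribosomal subunit, to which Gadd45gip1 belongs, 0 were called, 14 had an unadjusted p below 0.05 and 45 lay above 0, with a median of 0.20. Over all genes 17.1% had such a p, 60% lay above 0 and the median was 0.06. Mrpl14 (0.51 ± 0.12, adjusted p = 0.0558) and Mrpl57 (0.41 ± 0.10, adjusted p = 0.0567) came closest. In the 11Q line the median of this list was -0.06 against -0.04 over all genes, while the first probe set of Gadd45gip1 differed by -0.97. In the cohesin list of Mau2, 0 of 12 were called and 2 had an unadjusted p below 0.05 (17.1% of all genes had one), the median was -0.10, and Smc1a, a core subunit of the ring, was at -0.48 ± 0.12 (adjusted p = 0.0561) and Pds5b at -0.28.

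The remaining lists likewise had 0 called. Each of methionine salvage and the methionine cycle (11 measured, median -0.05), coenzyme A synthesis and cofactor carriers (14, median 0.11), acyltransferases around Lpcat2 (17, median 0.05), thrombospondins and cartilage matrix (10, median 0.09) and occludin and ELL proteins (4, median 0.02) had 1 gene with an unadjusted p below 0.05, where 17.1% of all genes had one. Those were Adi1 (0.23, adjusted p = 0.263), Slc25a17 (0.29, adjusted p = 0.236), Lpgat1 (-0.44, adjusted p = 0.0832), Thbs3, a thrombospondin like Comp (0.90, adjusted p = 0.0702), and Ell (0.36, adjusted p = 0.132). In the 11Q line, knockin and wild type arrays were separated in 1 of 11, 1 of 14, 0 of 17, 1 of 10 and 1 of 4 of these lists' genes, where 10.4% of all genes were separated.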

How the data were processed

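Total RNA of cerebellum was DNase-treated, made into biotin-labelled cRNA and hybridised to Affymetrix arrays, per the labels' protocols. The authors deposited RMA values on a log2 scale for every probe set, per the submitters' processing notes, which give no version or settings. No further normalization was applied.

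Array annotation gave 1 symbol to 34958 of 45101 probe sets, several to 932 and none to 9211. RefSeq (GRCm38.p6) supplied current symbols and gene order for 34754 by gene ID. A filter on the mean took out the dimmest 40% and left 27060. A model of 4 group means over 12 arrays was fitted to each probe set with limma 3.58.1 in R 4.3.3 (8 residual and 4.58 prior degrees of freedom), and p-values were adjusted over all probe sets by Benjamini-Hochberg, two-sided. Precision is limited by having 3 arrays a group (median standard error 0.154). Each standard error uses a residual spread shared by the 4 groups, and not that of the 2 groups compared alone. The fit was tested on simulated data.

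The members, lists and tests were chosen with earlier results of these data known. All probe sets of the 9 genes were reported. For each first probe set the 3 most correlated others were named, up to 5 chromosome 8 genes in each 11Q direction by smallest p among separated groups, and up to 2 genes of each list. The Zfp genes beside the members were named after their values were seen. Alternatives covered filters, normalization, the variance model, covariates, pairing and single arrays.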

Additional observations from a re-analysis of the deposited data

How the results depend on the processing

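Of the 13 member probe sets 0 were called in the 118Q line. Array weights called 3, the rule of an unadjusted p under 0.05 plus a 1.5-fold difference picked 1, and leaving out single arrays gave 0 to 1. In the 11Q line, also 0, the counts were 1 when only its 2 groups were fitted and 9 by the rule on unadjusted p and fold. Without single arrays they were 0 to 1, the count being 1 without 118Q wild type replicate 1 or replicate 2. Over all 27060 probe sets the same settings called 7 and 182, and 2 and 3 without those replicates. The genes were picked from this contrast, so its counts are set by that choice and support nothing. The 11Q differences moved by less than the residual SD of their probe set over the 4 groups in every alternative run. Set against the SDs of the 11Q groups alone some moved by more, such as Comp (2.183) and Ocel1 (0.698) with Ttr as covariate. The sign turned for Mau2 1426250_s_at (lowest -0.079) and 1431070_a_at (lowest -0.068) only. For the 118Q line 25 alternative values changed sign, none of them past the threshold. With 18S as covariate Slc25a42 was -0.313, Ocel1 -0.087, Zfp869 0.293, Zfp961 -0.069, and the Mau2 probe sets 1456492_at, 1451993_at and 1426250_s_at -0.087, -0.321 and -0.342. Mau2 1426250_s_at was -0.029 with quantile normalization and -0.055 without wild type replicate 3 of both lines, which put Zfp869 at 0.035. Array weights gave Zfp869 0.002 and Gadd45gip1 1448776_at -0.137. Leaving out single arrays gave -0.224 to 0.938 for Comp, -0.226 to 0.148 for Gadd45gip1 1417619_at and -0.039 to 0.253 for its 1448776_at, -0.055 to 0.123 for Mau2 1426250_s_at, -0.168 to 0.035 for Zfp869, -0.077 to 0.229 for Zfp961 and -0.424 to 0.007 for Lpcat2. The cause was not tested. Over all probe sets, the 608 called in the 118Q line became 5973 with array weights, 113 when only its 2 groups were fitted, 0 with 18S as covariate and 144 to 1449 without single arrays. Same-numbered arrays of a line showed no strong shared deviation (correlations -0.16 to 0.21). With 3 arrays a group this cannot settle whether the numbers pair samples. With the replicate number as a block 0 of 13 probe sets were called in either line.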
